A study of Mus musculus with 9 samples.

Results

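Active DNA demethylation in mouse embryonic stem cells (ESCs) was examined through 6 genes, the TET dioxygenase genes Tet1, Tet2 and Tet3, the glycosylase gene Tdg and the repair genes Apex1 and Xrcc1. The genes were chosen by name, with earlier results of these data known, and all 6 were present among the 15074 genes used from the deposited table. RNA-seq was performed on 9 libraries, 1 for each of 3 ESC lines on days 0, 2 and 4. The lines were WT (J1 ESCs), 1KO (Dnmt1-/- ESCs derived from J1) and 1KO+1CI (1KO ESCs carrying a transgene for catalytically inactive DNMT1 under the CAG promoter, a zeocin-selected clone). On day 0 the ESCs grew on mitomycin C-treated mouse embryonic fibroblasts with serum and LIF. For differentiation, feeder cells were removed and the ESCs formed embryoid bodies for 1 day in medium lacking LIF. They were then kept as adherent cells for 3 days, so days 2 and 4 both fall in the adherent phase. Expression was measured as FPKM, read counts scaled by transcript length and by the number of counted reads in the library. The decimals of the values match a mean over the RefSeq transcripts of a gene. These number 1 for Tet1 and Apex1, 2 for Tet2 and Tet3, 3 for Tdg and 4 for Xrcc1. Ratios, sums and shares across genes are therefore approximate.

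TET proteins oxidize 5-methylcytosine to 5-hydroxymethylcytosine and further to 5-formylcytosine and 5-carboxylcytosine. TDG cuts out the last forms as bases, APEX1 cleaves the sugar-phosphate backbone at the empty site, and XRCC1 is the scaffold that holds the ligase and polymerase at the resulting break. In ESCs, TET1 and TET2 are the main TET enzymes, whereas TET3 is best known for acting in the zygote and in differentiated tissues.

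Each condition had 1 library, so differences between single libraries carry no test. Depth ran from about 20100000 to 27700000 counted reads a library, taking the smallest step between FPKM values as 1 read, and the intervals on single values cover counting error only. Dnmt1 ranged from 48.5 to 80.4 FPKM in WT, from 12.3 to 17.4 in 1KO and from 129 to 315 in 1KO+1CI, and the 3 ranges did not overlap. Summed over the 9 of 10 fibroblast markers in the table, expression was 116 to 236 FPKM on day 0, highest in 1KO+1CI, and 20.2 to 45.2 on days 2 and 4, with Col1a1 at 39.0 to 76.0 FPKM on day 0. Of 8 ESC markers, 5 fell from day 0 to day 4 in the fit described below and none rose, beside 25.7% of all genes called. The pluripotency factor gene Pou5f1 stayed between 632 and 1008 FPKM in every library, and Klf4 was 30.3 to 67.1 FPKM on day 0 and 0.749 to 2.46 on day 4. Nanog was at 89.5 FPKM on day 2 and 56.8 on day 4 in WT, but at 58.8 and then 171 FPKM in 1KO and at 40.9 and then 157 FPKM in the 1KO+1CI line. The mesendoderm gene T (brachyury) reached 2.07 FPKM in the WT day 4 library, compared with 29.2 for 1KO and 27.2 for 1KO+1CI. The part of the fibroblast and lineage markers in the results below was not tested, and in these bulk samples fewer cells of a type and less RNA per cell cannot be told apart.

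Of the 3 TET genes, Tet2 stood apart in CpG content just upstream of its start, while Tet1 and Tet3 were alike. In the RefSeq promoter table (GRCm38.p6), the 250 bases before the start held 15 CpGs for Tet1, 51 for Tet2 and 17 for Tet3, against a median of 6 over 32851 such windows. The Tet2 window, with a GC content of 83.6%, had more CpGs than 99.9% of them. The counts were 19 for Tdg, 28 for Apex1 and 5 for Xrcc1. The Xrcc1 window (chr7:24546449-24546698, plus strand) lies inside the GENCODE M21 gene span, which starts at 24546289. Of the Apex1 window, 195 bases are annotated exons of Osgep. Annotated exons also cover 100 bases of the Tet1 window (Tet1 itself) and 174 of the Tet3 window (B230319C09Rik). The letters GGGCGG (the GC box, either strand, exact match) were present once in the Tet1, Tet2, Tet3 and Apex1 windows and in 32.7% of all windows. The longest stretch of each TET window outside annotated exons is shown on the gene's own strand, with CpG dinucleotides, the sites where DNMT and TET enzymes act, in capitals.
Tet1, chr10:62887325-62887412, minus strand: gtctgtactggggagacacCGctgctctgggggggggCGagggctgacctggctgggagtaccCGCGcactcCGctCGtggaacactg
Tet2, chr3:133544391-133544640, minus strand: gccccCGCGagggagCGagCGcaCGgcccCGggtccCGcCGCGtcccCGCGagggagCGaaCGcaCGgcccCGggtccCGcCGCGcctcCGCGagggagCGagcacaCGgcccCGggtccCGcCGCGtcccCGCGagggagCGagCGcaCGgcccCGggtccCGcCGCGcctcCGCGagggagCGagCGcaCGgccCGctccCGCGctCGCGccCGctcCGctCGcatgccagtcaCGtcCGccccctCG
Tet3, chr6:83441679-83441754, minus strand: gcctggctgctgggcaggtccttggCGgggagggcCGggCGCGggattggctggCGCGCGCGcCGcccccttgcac
All 3 stretches lie inside the longer gene spans that GENCODE M21 gives, upstream of the RefSeq start used here. The Tet2 stretch is made of near-repeats with a CpG every few bases, whereas CpGs in the Tet1 stretch are further apart. Methylation of these stretches was not analysed here.

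Tet1 (chr10:62804570-62908996, minus strand, GRCm38, GENCODE M21), the most abundant TET gene in every library, fell sharply between day 2 and day 4. It was at 31.2, 41.1 and 11.0 FPKM on days 0, 2 and 4 in WT, at 37.7, 34.3 and 7.79 FPKM in 1KO and at 47.1, 33.4 and 7.36 FPKM in 1KO+1CI. The 3 day 4 libraries lay below all 6 earlier ones. Relative to its own day 0, the day 4 level was 0.352 times as high for WT, 0.207 times for 1KO and 0.156 times for the 1KO+1CI line. On day 0 the order of lines was WT, 1KO and 1KO+1CI from low to high, with 95% counting intervals that did not overlap, and on day 4 the order was the reverse, with the intervals of 1KO and 1KO+1CI overlapping. At day 2, WT was above its own day 0 while both mutant lines were below theirs.

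Tet2 (chr3:133463679-133545139, minus strand), whose product lacks the DNA-binding CXXC domain of TET1, followed the same course at a lower level. It was at 6.28, 10.4 and 0.917 FPKM on days 0, 2 and 4 in WT, at 6.55, 5.70 and 0.658 FPKM in 1KO and at 8.57, 4.24 and 0.437 FPKM in 1KO+1CI. As for Tet1, the 3 day 4 libraries lay below the other 6, and WT alone was higher on day 2 than on day 0. Compared with day 0 of the same line, the day 4 level of WT was 0.146 times as high, that of 1KO 0.100 times and that of 1KO+1CI 0.0509 times. The lowest value, that of 1KO+1CI on day 4, rests on about 80 reads. Tet1 was 4.98 to 5.76 times as high as Tet2 on day 0 and 11.9 to 16.9 times on day 4.

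Tet3 (chr6:83362373-83459084, minus strand), the third TET gene, was the lowest of the 6 genes on day 0. It was at 1.72, 2.01 and 2.22 FPKM on days 0, 2 and 4 in WT, at 1.32, 2.54 and 2.24 FPKM in 1KO and at 1.21, 2.85 and 2.87 FPKM in 1KO+1CI. Every day 2 and day 4 library was above every day 0 library, and the values rest on about 240 to 507 reads a library. In WT the counting intervals of day 0 and day 2 overlapped. The day 2 level was 1.17 times that of day 0 for WT, 1.93 times for 1KO and 2.36 times for the 1KO+1CI line.

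**Figure D1:**
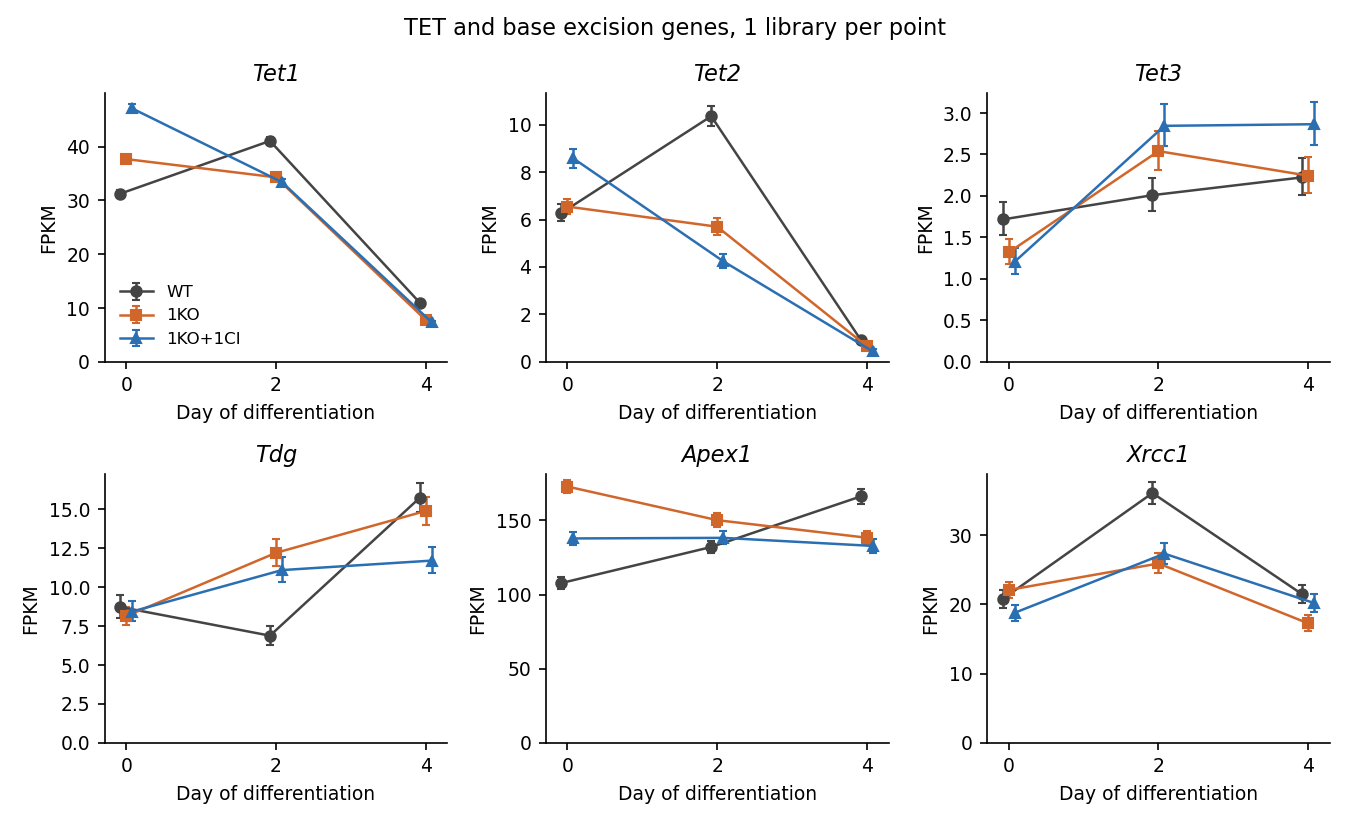
FPKM (vertical axes, starting at 0) of the 6 genes on days 0, 2 and 4 in WT, 1KO and 1KO+1CI; each point is 1 library and bars are 95% Poisson intervals of the read count. Tet1 and Tet2 are lowest on day 4 in all 3 lines, Tet3 is lowest on day 0, and only the WT line shows a day 2 peak of Tet1 and Tet2.

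The pool of TET transcripts shrank by day 4 and changed in makeup. Summed over the 3 genes it was 39.2, 53.4 and 14.1 FPKM on days 0, 2 and 4 in WT, 45.5, 42.5 and 10.7 FPKM in 1KO and 56.9, 40.5 and 10.7 FPKM in 1KO+1CI. Tet3 made up 4.37% of the sum on day 0 and 15.7% on day 4 in WT. The corresponding shares were 2.90% and 21.0% for 1KO, and 2.12% and 26.9% for the 1KO+1CI line. The share of Tet2 was 14.4 to 16.0% on day 0 and 4.09 to 6.48% on day 4, so that Tet3 exceeded Tet2 in the 3 day 4 libraries and in none of the other 6. Tet1 held 69.0 to 82.8% of the sum throughout.

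**Figure D2:**
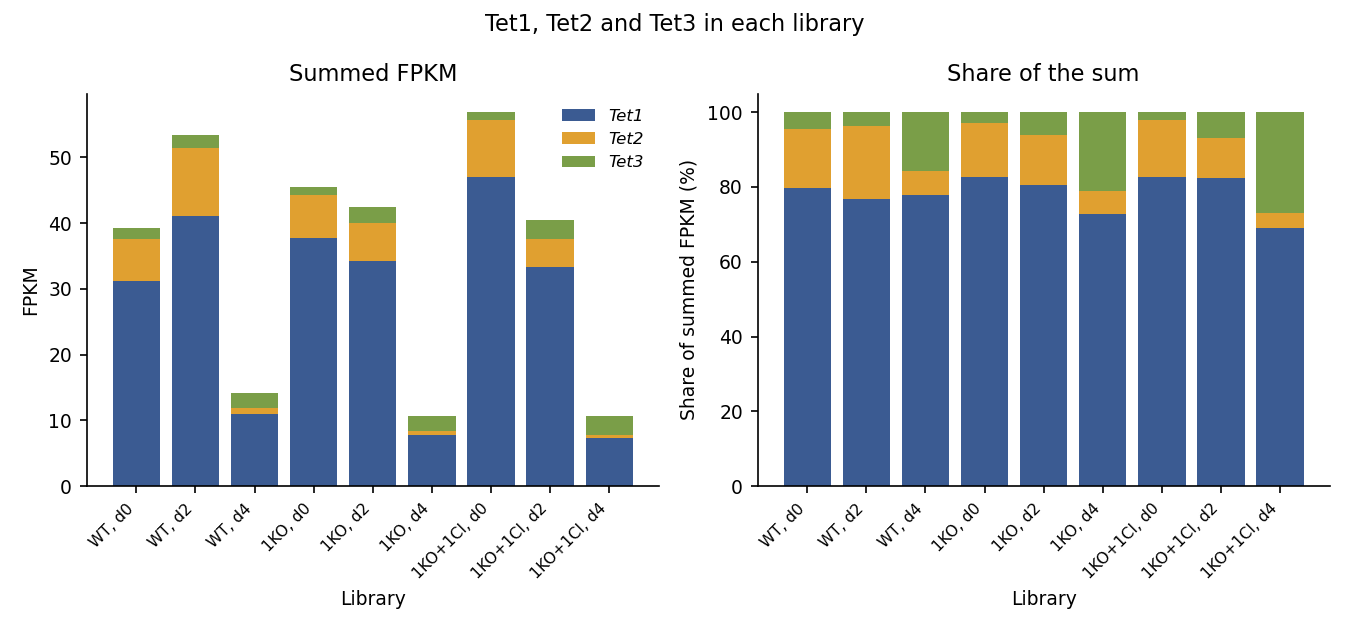
Left, FPKM of Tet1, Tet2 and Tet3 stacked for each of the 9 libraries; right, the same as a percentage of their sum. The day 4 bars reach 10.7 to 14.1 FPKM against 39.2 to 56.9 on days 0 and 2, and the Tet3 share is largest there.

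Tdg (chr10:82629828-82650799, plus strand), which encodes the glycosylase for 5-formylcytosine and 5-carboxylcytosine, has a near-identical copy of part of its transcript. The processed pseudogene Gm9855 (chr10:42054113-42055306, minus strand) matched the Tdg-208 transcript of GENCODE M21 over 1194 bases with 1185 identical and no gap, an identity of 99.2%. The match took in all of Gm9855 but only bases 230 to 1423 of the 3502 in Tdg-208. The coding region of Tdg-208 ends at base 1420, so most bases beyond it have no counterpart in this alignment. Of 1045 windows of 150 bases in the aligned part, 150 being the read length, 607 were the same in both. The coding stretch of 150 bases with the most differences is shown to illustrate how little separates the pair, with the 5 differing bases in capitals and bases counted from the start of each transcript.
Tdg-208, bases 1181 to 1330: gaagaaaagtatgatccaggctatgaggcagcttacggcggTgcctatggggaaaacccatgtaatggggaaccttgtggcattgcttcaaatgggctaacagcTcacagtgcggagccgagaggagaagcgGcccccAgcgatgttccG
Gm9855, bases 952 to 1101: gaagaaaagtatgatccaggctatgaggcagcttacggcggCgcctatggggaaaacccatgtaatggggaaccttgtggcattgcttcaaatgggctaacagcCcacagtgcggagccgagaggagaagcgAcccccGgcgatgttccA
In the gene table Gm9855 was 1.13 to 1.16 times the FPKM of Tdg in all 9 libraries, and the sources used here do not say how multi-mapping reads were counted. The Tdg values below are therefore uncertain as to which of the 2 loci the reads from the matched part came from. Tdg also shares 367 exonic bases with Glt8d2 on the opposite strand, which was at 0.409 FPKM or less in every library.

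With that limit, Tdg was at 8.73, 6.89 and 15.7 FPKM on days 0, 2 and 4 in WT, at 8.14, 12.2 and 14.9 FPKM in 1KO and at 8.44, 11.1 and 11.7 FPKM in 1KO+1CI. On day 0 the counting intervals of the 3 lines overlapped. At day 4 all 3 libraries were above all 3 day 0 libraries, whereas on day 2 WT was the lowest of the 9 and both mutant lines had already left the day 0 range. Gm9855 was at 10.0, 7.90 and 17.9 FPKM in WT, at 9.16, 14.1 and 17.3 FPKM in 1KO and at 9.66, 12.5 and 13.4 FPKM in 1KO+1CI. The ratio of Tdg to the TET sum lay between 0.148 and 0.222 on day 0 and between 1.10 and 1.39 on day 4.

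**Figure D3:**
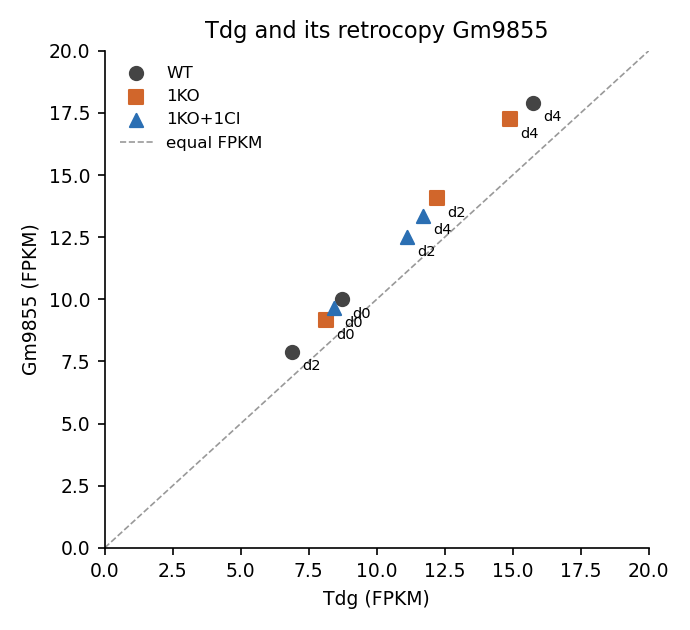
FPKM of Gm9855 (vertical) against Tdg (horizontal) in the 9 libraries, marked by line and labelled by day; the dashed line marks equal FPKM. The points lie along 1 line slightly above equality, with Gm9855 at 1.13 to 1.16 times Tdg.

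Apex1 (chr14:50924968-50927139, plus strand), the main apurinic/apyrimidinic endonuclease gene, was by far the highest of the 6. It was at 108, 132 and 166 FPKM on days 0, 2 and 4 in WT, at 173, 150 and 138 FPKM in 1KO and at 138, 138 and 133 FPKM in 1KO+1CI, above 96.4 to 97.6% of genes in each library. The level went up with each day in WT, down with each day in 1KO and changed little over the days in the 1KO+1CI line. Apex1 shares 877 exonic bases with Pip4p1 on the opposite strand, and whether counting used strand is not stated in those sources. Pip4p1 was at 26.6 to 38.9 FPKM.

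Xrcc1 (chr7:24546289-24573440, plus strand), which encodes the scaffold of single-strand break repair, peaked on day 2. It was at 20.8, 36.1 and 21.4 FPKM on days 0, 2 and 4 in WT, at 22.1, 25.9 and 17.2 FPKM in 1KO and at 18.8, 27.3 and 20.2 FPKM in 1KO+1CI. All 3 day 2 libraries were above the other 6, with WT the highest.

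To ask which day differences exceeded the spread left among the 9 libraries, log2(FPKM + 1) was fitted with limma as the sum of a line term and a day term, which leaves 4 residual degrees of freedom. That spread contains both culture variation and any time course particular to a line, and the line term compares these 3 cell lines. All p-values were adjusted (Benjamini-Hochberg) over 12153 genes with a mean of at least 1 FPKM, and all 6 genes passed that filter.

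Between day 0 and day 4, 3 of the 6 genes changed at an adjusted p below 0.05, compared with 25.7% of all genes. Tet1 fell by 2.03 on the log2 scale (95% interval −2.46 to −1.60, limma adjusted p = 0.000456). Tet2 fell by 2.28 (−2.85 to −1.71, adjusted p = 0.000808), and fewer than 1% of genes had a more negative difference than either. Tdg, counted with its copy, rose by 0.67 (0.22 to 1.12, adjusted p = 0.0380), a call that was lost without WT day 4, without any 1 of the 1KO libraries or without 1KO+1CI day 0, with adjusted p up to 0.151. The difference for Tet3 was 0.51 (0.13 to 0.89, adjusted p = 0.0531), past the threshold without WT day 0, without WT day 2, without all WT libraries or without the trend (lowest adjusted p = 0.0174). Apex1 (0.08, −0.28 to 0.45) and Xrcc1 (−0.07, −0.35 to 0.22) did not pass.

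Between day 2 and day 4, 3 of 6 genes again passed, against 26.6% of all genes. Tet1 fell by 1.95 (95% interval −2.38 to −1.52, limma adjusted p = 0.00102), Tet2 fell by 2.15 (−2.72 to −1.58, adjusted p = 0.00178) and Xrcc1 fell by 0.57 (−0.86 to −0.28, adjusted p = 0.0149). With the day 0 libraries left out, 3 of 6 were called, beside 3310 of all 12153 genes. Xrcc1 lost its call without WT day 2 or without 1KO day 4, with adjusted p up to 0.0801. Tdg differed by 0.47 (0.03 to 0.92, adjusted p = 0.105), Apex1 by 0.05 and Tet3 by −0.01.

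Between day 0 and day 2, only Xrcc1 passed, 1 of 6 genes against 17.8% of all genes, with a rise of 0.50 (95% interval 0.21 to 0.79, limma adjusted p = 0.0303). The number of all genes called was 2160, and 457 without 1KO day 2, 780 without 1KO+1CI day 0, 860 without 1KO+1CI day 2, 1045 without 1KO day 0 and 1384 without WT day 2. That call was lost without WT day 0, WT day 2, 1KO day 2, 1KO+1CI day 0 or 1KO+1CI day 2, with adjusted p up to 0.120. Tet3 was close to the threshold at 0.52 (0.14 to 0.90, adjusted p = 0.0645). The values for Tet1 (−0.08, −0.51 to 0.35) and Tet2 (−0.13, −0.70 to 0.44) average a WT rise and a fall in the mutant lines. All 9 fibroblast markers tested fell over this interval and 8 of 9 fell from day 0 to day 4, where 25.7% of all genes were called.

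Libraries were also compared in pairs, without a test. Tet1 and Tet2 were more than 2-fold lower (difference in log2(FPKM + 1) beyond 1) on day 4 than on day 0 in all 3 lines, where 7.41% of genes moved that far for WT, 10.8% for 1KO and 11.9% for the 1KO+1CI line. They were also more than 2-fold lower on day 4 than on day 2 in all 3 lines, against 9.6%, 8.83% and 7.93% of genes. The only other change past that size on the log2(FPKM + 1) scale was that of Tdg in WT between day 2 and day 4 (1.09, or 2.29 times in FPKM). Tet3 in 1KO+1CI was 2.36 and 2.37 times its day 0 level in FPKM on days 2 and 4, which the pseudocount keeps below the limit.

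**Figure D4:**
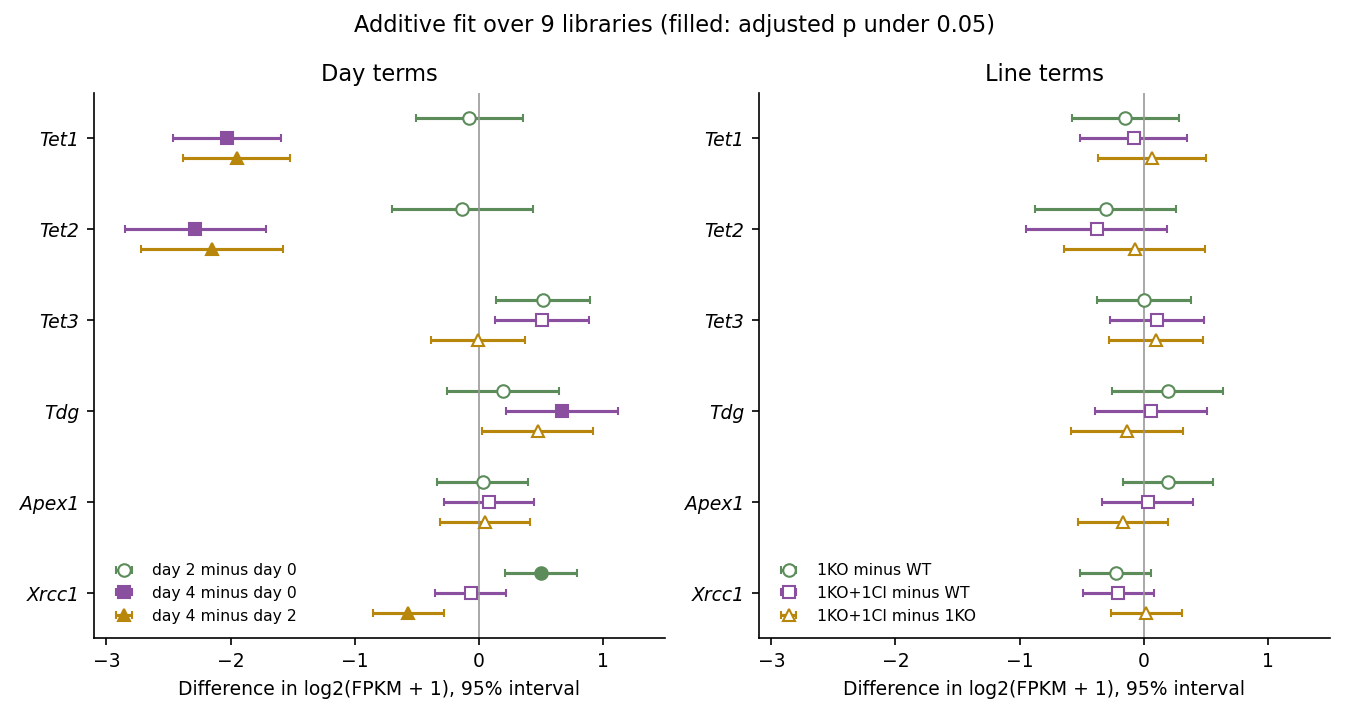
Differences in log2(FPKM + 1) from the additive fit for the 6 genes, with 95% intervals; left, the 3 day contrasts, right, the 3 line contrasts, filled where the adjusted p is under 0.05. The filled points are Tet1 and Tet2 on day 4 against both earlier days, Tdg on day 4 against day 0, and Xrcc1 on day 2 against day 0 and on day 4 against day 2, and no line contrast is filled.

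None of the 6 genes passed the test between lines. In 1KO against WT, 0 of 6 were called, where 2.91% of all genes were, and in all 3 line contrasts 0 of 6 had an unadjusted p under 0.05. The background in 1KO against WT rests on single libraries, with 354 genes called in all but 11, 18 and 16 without 1KO day 0, 2 and 4, 82 without WT day 2, and 158 and 164 without 1KO+1CI day 0 and 2. In 1KO+1CI against WT it was 657, and 79, 125 and 143 without 1KO+1CI day 0, 2 and 4, and 285 to 422 without 1KO day 2, WT day 2 or 1KO day 4. In 1KO+1CI against WT, 0 of 6 were called against 5.41% of all genes, and in 1KO+1CI against 1KO, 0 of 6 against 0.00823%, which is the single gene Dnmt1 (3.61, adjusted p = 0.00893). The smallest adjusted p of the 6 was 0.404, for Xrcc1 in 1KO+1CI against WT (−0.20, 95% interval −0.49 to 0.08). The intervals leave room for sizeable differences. For Tet2 the difference was −0.31 (−0.88 to 0.26) for 1KO against WT and −0.38 (−0.95 to 0.19) for 1KO+1CI against WT. For Tet1 the corresponding differences were −0.15 (−0.58 to 0.29) and −0.08 (−0.51 to 0.35). For Apex1, 1KO against WT gave 0.20 (−0.16 to 0.56).

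Single libraries of different lines were also compared on each day. On day 2, Tet2 in 1KO+1CI was 0.410 times and in 1KO 0.550 times its WT level. The 1KO+1CI difference (−1.12 in log2(FPKM + 1)) was the only one of the 6 genes to go past 2-fold on that scale between lines on the same day, where 4.15% of all genes did so. On day 4, Tet2 in 1KO+1CI was 0.476 times its WT level in FPKM, at a level where the pseudocount reduces the difference to −0.42. Tdg on day 2 was 1.77 times the WT level in 1KO and 1.61 times in 1KO+1CI, and Xrcc1 was 0.718 and 0.757 times. On day 0 the widest gap from WT was that of Apex1, 1.60 times as high in 1KO as in WT. These pairs have no replicate.

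The surrounding pathway was described through lists of related genes, whose counts are to be read against the 25.7% (day 4 against day 0), 26.6% (day 4 against day 2) and 17.8% (day 2 against day 0) of all genes called. For counts between lines the shares were 2.91% (1KO against WT), 5.41% (1KO+1CI against WT) and 0.00823% (1KO+1CI against 1KO). The pathway calls from day 0 to day 4 that held with each library left out in turn were those of Ung, Apex2, Hmces, Parp1, Prdm14, Dnmt3b, Apobec3, Apobec2, Cdt1 and Mcm6, and the other calls between these days were lost without at least 1 library. From day 0 to day 2 only the call of Prdm14 held in this way. From day 2 to day 4 those of Prdm14, Gadd45a, Rybp, Dnmt3l and Apobec3 held. The other pathway calls involving day 2 were lost without at least 1 library. Among 10 other DNA glycosylase genes, Ung, the uracil glycosylase gene, fell from day 0 to day 4 (−0.88, limma adjusted p = 0.00472) and from day 0 to day 2 (−0.62, adjusted p = 0.0269), and Mpg, the alkyladenine glycosylase gene, fell to day 2 (−0.48, adjusted p = 0.0245) and rose again to day 4 (0.48, adjusted p = 0.0180). The other 8, including Smug1 and Mbd4, were not called between any days. Neil1 had the highest difference from day 0 to day 4 (0.32, not called). The list median was 0.01, beside 0.02 over all genes. No glycosylase passed between lines, with the lowest values for Neil2, at −0.88 in 1KO (adjusted p = 0.120) and −0.95 in 1KO+1CI (adjusted p = 0.0654) against WT.

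Of 16 genes acting after base removal, 4 fell and 1 rose between day 0 and day 4, beside 25.7% of all genes called, the median difference being −0.12. Apex2, a second endonuclease gene beside Apex1, rose by 0.83 (limma adjusted p = 0.00717). Hmces, whose product shields abasic sites in single-stranded DNA, fell by 2.06 (adjusted p = 0.00635), close to the size of the Tet1 change. It was at 54.8, 116 and 14.1 FPKM on days 0, 2 and 4 in WT, 84.6, 47.8 and 17.8 in 1KO and 69.1, 32.6 and 15.4 in 1KO+1CI, so that, like Tet1 and Tet2, it was higher on day 2 than on day 0 only in WT. Parp1, the sensor of strand breaks that recruits XRCC1, fell by 0.70 (adjusted p = 0.00188), and the ligase gene Lig1 and polymerase gene Pole fell by 0.38 and 0.31. From day 2 to day 4, 5 of the 16 fell, namely Hmces, Aplf, Pole, Pold1 and Parg, and none rose, beside 26.6% of all genes called. Polb, the gap-filling polymerase gene of this pathway, was the only one called between lines, at −0.75 in 1KO against WT (adjusted p = 0.0408), and that call was lost whichever library was left out (adjusted p 0.0655 to 0.188).

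Polb was at 17.8, 17.3 and 20.6 FPKM on days 0, 2 and 4 in WT, at 9.28, 13.4 and 9.46 in 1KO and at 11.6, 11.0 and 12.5 in 1KO+1CI. All 6 mutant libraries were below all 3 WT libraries. In 1KO+1CI against WT the difference was −0.62 (limma adjusted p = 0.0537), just short of significance.

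Among 19 TET partners and cofactor genes, 18 passed the filter, and between day 0 and day 4, 5 of them fell and 1 rose, beside 25.7% of all genes called, the median difference being −0.23. Prdm14, a pluripotency factor gene, fell the most (−3.01, limma adjusted p = 0.000233), from 5.60 to 9.69 FPKM on day 0 to at most 0.230 on day 4. Idh2, which encodes a mitochondrial isocitrate dehydrogenase, fell by 0.45, and Sall4, Gadd45a and Rybp fell by 0.42, 0.37 and 0.31. The Idh2 estimate averages falls in WT (74.8 to 42.5 FPKM) and 1KO+1CI (67.3 to 45.9) with an unchanged level in 1KO (62.5 and 62.4). Hdac1 was the 1 that rose (0.37, adjusted p = 0.0307), and the highest value was that of Cxxc5 (0.49, adjusted p = 0.0663). Ogt, the O-GlcNAc transferase gene, rose to day 2 (0.57, adjusted p = 0.0126) and fell to day 4 (−0.38, adjusted p = 0.0382), the course also seen for Xrcc1. The Ogt rise lost its call without any 1 of 3 libraries (limma adjusted p up to 0.0622). Its fall lost the call without any 1 of 8 libraries (limma adjusted p up to 0.160). Nanog, a pluripotency factor gene, fell to day 2 (−1.71, adjusted p = 0.0269). None of the 18 passed between lines, the lowest being Gadd45a in 1KO against WT (−0.54, adjusted p = 0.0511).

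On the opposing side, of 5 methyltransferase genes and their cofactors Dnmt3a and Dnmt3b rose to day 2 (1.25 and 1.00). From day 0 to day 4 Dnmt3b rose by 1.78 (limma adjusted p = 0.00282) and Uhrf1 fell by 0.39 (adjusted p = 0.0195). The Dnmt3l estimate was −1.37 (limma adjusted p = 0.0280), but only the mutant lines fell. Dnmt3l was at 41.3 and 42.9 FPKM on days 0 and 4 in WT, 203 and 41.0 in 1KO and 203 and 53.7 in 1KO+1CI. The summed FPKM of Dnmt3a and Dnmt3b was 1.87 to 2.81 times the TET sum on day 0, 2.76 times on day 2 in WT, 6.48 and 6.82 times on day 2 in 1KO and 1KO+1CI, and 22.7 to 32.4 times on day 4. Of 4 cytosine deaminase genes 3 passed the filter, and Apobec3 and Apobec2 fell over those days (−1.08 and −0.73), while Apobec1 did not pass (−0.59). Among 14 replication genes 6 fell and none rose over the same days, beside 25.7% of all genes called, namely Mcm6 (−0.73), Cdt1 (−0.64), Gins1, Mcm3, Prim1 and Mcm4. Between lines, Cdt1, the replication licensing factor gene, was lower in 1KO (−0.48, limma adjusted p = 0.0344) and in 1KO+1CI (−0.65, adjusted p = 0.0102) than in WT, and Mcm5 was lower in 1KO+1CI (−0.67, adjusted p = 0.0360). The Cdt1 call in 1KO was lost without any 1 of 8 libraries (limma adjusted p up to 0.232). That in 1KO+1CI was lost without any 1 of the 3 libraries of that line (limma adjusted p up to 0.0591). The Mcm5 call was lost without any 1 of 7 libraries (limma adjusted p up to 0.140).

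**Figure D5:**
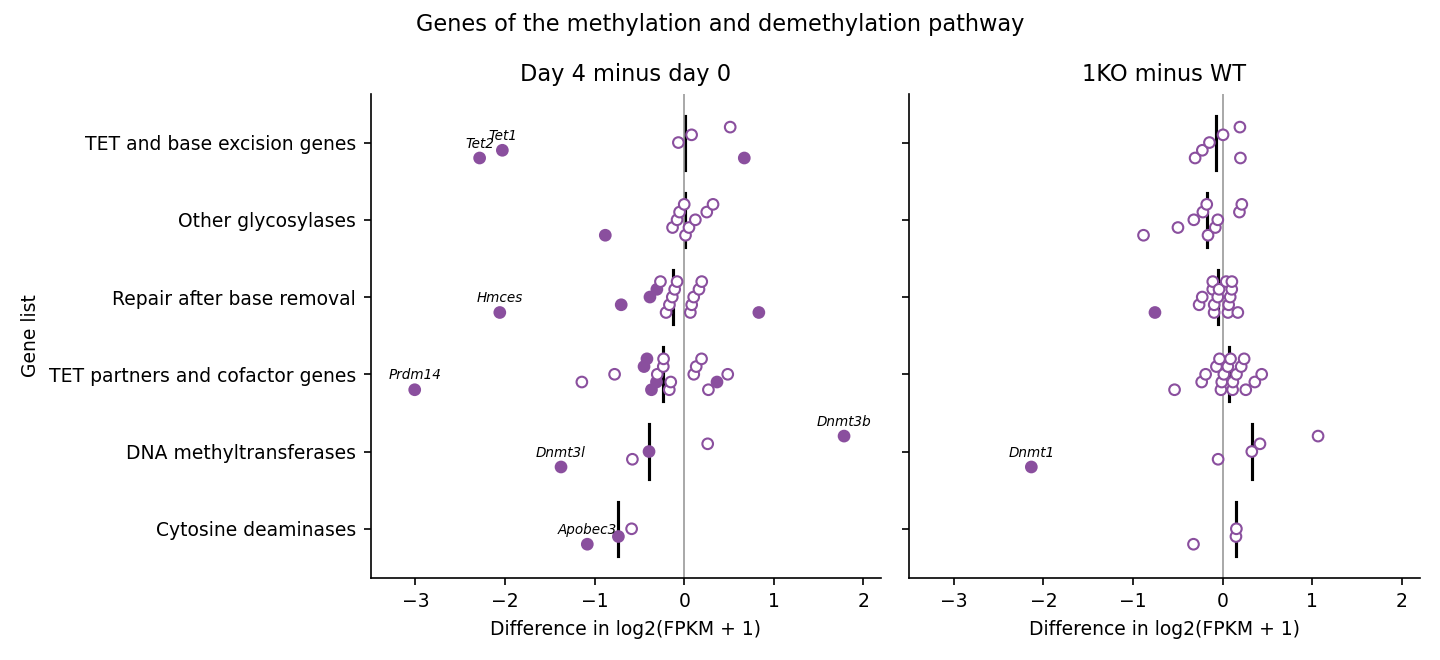
Differences in log2(FPKM + 1) from the additive fit for each gene (points) of 6 lists, day 4 minus day 0 on the left and 1KO minus WT on the right; filled points have an adjusted p under 0.05, black bars are list medians and called genes beyond 1 are named. Tet1, Tet2, Hmces and Prdm14 stand at the left of the day panel, and Dnmt1 is the only gene beyond 1 called in the line panel.

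The genes whose log2(FPKM + 1) followed each of the 6 most closely across the 9 libraries were found among those with a mean of at least 5 FPKM. For Tet1 they were Morc1 (r = 0.998), Phf11d (0.996) and Phf20 (0.994), and for Tet2 Phf20 (0.992), Pecam1 (0.992) and Rest (0.991). Tet1 and Tet2 had r = 0.981 with each other. For Tet3 they were Rab6a (0.965), Gspt2 (0.956) and Ppp2r5d (0.955), and for Tdg, after Gm9855 (0.999), Ring1 (0.962) and Jph1 (0.955). Apex1 was closest to Psmc5 (0.975), Phb (0.974) and Pin4 (0.954), and Xrcc1 to Dctn4 (0.978), Pdhb (0.977) and Ankrd13c (0.969). These values describe 9 libraries that share 3 lines and 3 days, and the highest of 8388 or 8389 genes were taken. The measure r takes no account of the size of a change. Tet2 ran from 0.437 to 10.4 FPKM, but Phf20 only from 18.9 to 28.3. Rab6a ran from 41.0 to 52.2 FPKM, whereas Morc1 ran from 1.19 to 34.1.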

How the data were processed

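Paired-end reads of 150 bases were processed by the authors, whose notes name Trim Galore, HISAT2 (mm10), SAMtools and HOMER. The sources used here name no tool version or annotation release, and do not say whether strand was used or how multi-mapping reads were counted. The deposited gene table holds FPKM, counts divided by transcript length and library size by the authors, for 15095 entries. The 21 named 0 or by a date were left out. Counted reads were estimated from the smallest step between FPKM values, and single-value intervals are 95% Poisson intervals. Reads of a gene were computed from its FPKM and the mean length of its GENCODE coding transcripts, so they and these intervals are approximate.

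Differences were computed on log2(FPKM + 1), so changes of low genes are understated. The main test was limma 3.58.1 (R 4.3.3) with line + day over 9 libraries, eBayes with trend and Benjamini-Hochberg adjustment over 12153 genes with a mean of at least 1 FPKM, called below 0.05. The fit was also run on simulated data with independent normal errors. Those data held no time course particular to a line, so the run does not cover that part of the spread. There are no replicates of a condition, and p-values measure only the spread left among these libraries. Alternatives were pseudocounts of 0.1 and 0.01, 2 scalings of the libraries, no filter, no trend, leaving out each library and, added after seeing the data, leaving out day 0, day 4 or WT. The 6 genes and the related gene lists were chosen with earlier results of these data known. The rule was to name all 6 with every value and, from each other list, the called genes and the highest and lowest difference. Marker lists and some contrasts are given by counts and examples only, and some further genes were chosen after their values were seen. The 3 closest genes by Pearson's r were named for each. Positions are from GENCODE M21 and upstream sequences from RefSeq. The Tdg copy was aligned with blastn 2.17.0. The repeat table was used only for depth.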

Additional observations from a re-analysis of the deposited data

Results flagged for a closer look

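Some genes moved in opposite directions in different lines between the same days, each by more than 0.1 on the log2(FPKM + 1) scale. With 1 library a condition these differences between lines were not tested. From day 0 to day 2, Tet1 differed by 0.38 for WT, −0.13 for 1KO and −0.48 for the 1KO+1CI line, a gap of 0.87 between the extremes. For Tet2 the values were 0.64, −0.17 and −0.87, a gap of 1.51. For Tdg, counted with its copy, they ran the other way, at −0.30, 0.53 and 0.36, a gap of 0.83. Apex1 had 0.29, −0.20 and 0.00 over these days, a gap of 0.49. From day 0 to day 4 Apex1 differed by 0.62 for WT, −0.32 for 1KO and −0.05 for the 1KO+1CI line, a gap of 0.94, and from day 2 to day 4 by 0.33, −0.12 and −0.06, a gap of 0.45.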

How the results depend on the processing

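The falls of Tet1 and Tet2 to day 4, from day 0 and from day 2, passed the threshold under every alternative run. Between day 0 and day 2 the count of the 6 genes called was 2 under TPM-like rescaling and 2 without the trend, where Tet3 joined Xrcc1. Over all 12153 genes, 2434 and 2091 were called in these settings. The count of the 6 was 0 to 1 when single libraries were left out, beside 457 to 2714 of all genes. It was 0 without WT day 2, 1KO day 2, 1KO+1CI day 0 or 1KO+1CI day 2, and without WT day 0 the 1 gene was Tet3. Without the WT libraries Xrcc1 lost its call there (adjusted p = 0.0822) and Tet3 was called (adjusted p = 0.0205). From day 0 to day 4, 2 to 4 of the 6 were called with 1 library left out, and 4, Tet3 included, without the trend or without the WT libraries, from day 2 to day 4, 2 to 3, and between lines 0. Over all genes and with 1 library left out, the 3119 calls from day 0 to day 4 ranged from 1325 (without 1KO+1CI day 0) to 3653. The 3236 from day 2 to day 4 ranged likewise from 1159 (without 1KO day 2) to 4036. Without the WT libraries the calls numbered 4355 and 3631, and without the trend 3063 and 3049. TPM-like rescaling moved the median of all genes to 0.09 from day 0 to day 2 and to −0.09 from day 2 to day 4.

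Estimates that were not called changed sign as follows, and the cause was not tested. Without the WT libraries Apex1 gave −0.10 (day 2 minus day 0), −0.19 (day 4 minus day 0) and −0.088 (day 4 minus day 2), and −0.047 for the last under TPM-like rescaling. Without the day 4 libraries Tet1 gave 0.0047 in 1KO and 0.14 in 1KO+1CI against WT, and Xrcc1 gave −0.074 in 1KO+1CI against 1KO. Without the day 0 libraries Apex1 gave −0.040 in 1KO and −0.13 in 1KO+1CI against WT, and Tet1 gave −0.055 in 1KO+1CI against 1KO. Tet3 in 1KO against WT was −0.0064 with a pseudocount of 0.1 and −0.0090 with 0.01.

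With single libraries left out, the values for day 2 minus day 0 ranged from −0.34 to 0.15 (Tet1), −0.43 to 0.16 (Tet2) and −0.17 to 0.19 (Apex1). Those for day 4 minus day 0 ranged from −0.12 to 0.24 (Apex1) and −0.16 to 0.073 (Xrcc1), and those for day 4 minus day 2 from −0.13 to 0.060 (Tet3) and −0.15 to 0.19 (Apex1). For 1KO against WT they were −0.41 to 0.040 (Tet1), −0.11 to 0.16 (Tet3), −0.084 to 0.37 (Tdg) and −0.00046 to 0.40 (Apex1). For 1KO+1CI against WT they were −0.34 to 0.11 (Tet1), −0.014 to 0.26 (Tet3), −0.22 to 0.24 (Tdg) and −0.17 to 0.24 (Apex1). For 1KO+1CI against 1KO they were −0.16 to 0.21 (Tet1), −0.37 to 0.18 (Tet2), −0.28 to 0.027 (Tdg) and −0.056 to 0.16 (Xrcc1).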
